A study of Drosophila virilis and Drosophila yakuba with 2 samples.

Results

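The X-linked genes described here were the gene models that the deposited tables place on the X chromosome, measured in female heads of Drosophila virilis and Drosophila yakuba. In yakuba these were all 2401 models with a locus on chromosome X, 14.93% of the 16077 models of that library. The virilis table names scaffolds and no chromosomes, and its X-linked set was all 2139 models on scaffold_12928, scaffold_12932, scaffold_12970 and scaffold_13042, 14.76% of 14491 models. Each species was represented by 1 total RNA library. Its heads came from wild-type, mated females, 2 to 5 days old, of 1 stock-center line per species. How many heads went into a library is not given in the sources used here. No allele, treatment or male sample was part of the comparison. With 1 library per species no value has a replicate error, and no difference was tested.

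The X of these species corresponds to Muller element A, the chromosome element that is also the X of D. melanogaster. Females carry a pair of X chromosomes and males a single one, and in Drosophila the dosage compensation complex raises transcription of the X in males and not in females, so a female head is a setting in which X and autosomes are present in equal copy number. The D. melanogaster X is known for classical loci of the eye, nervous system, clock and cuticle, for yolk and eggshell genes, and for the X-linked signal elements that start female development.

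The assignment of the virilis scaffolds was set against gene symbols. Of the 39 X-linked virilis models with a gene symbol, 30 were found in the RefSeq gene table of another D. virilis assembly (Dvir_AGI_RSII-ME), and 30 of 30 were placed on the X there. The other 9 matched no symbol that occurs only once in that table, and symbols that occur more often were not used. A total of 14 of the 39 carried the same symbol in yakuba, and 14 of 14 lay on the yakuba X. The autosomal comparison in virilis was the 10 other scaffolds with at least 100 models, scaffold_12726 apart, 11255 models in all, and 0 of their 161 symbols found in RefSeq were X-linked there. Scaffold_12726, with 197 models, was put in neither set, because it is outside the X set while its 3 symbols were on the X in RefSeq. The autosomal comparison in yakuba was the arms 2L, 2R, 3L and 3R, with 12199 models.

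Values are FPKM (fragments divided by the length of the gene model and by the size of the library), and a model at 1 FPKM or more is called expressed here. The spacing of the lowest values put the virilis total at about 70750000 fragments (70000000 to 72750000 among the next best totals) and the yakuba total at about 63250000 (61250000 to 64750000). A model whose fragments were divided by a length of 1 kb, after any correction for fragment size, then rested at 1 FPKM on 70.75 fragments in virilis. The 95% exact Poisson interval for such a model was 0.781 to 1.26 FPKM. In yakuba such a model rested on 63.25 fragments, with an interval of 0.769 to 1.28 FPKM. For such a model 3 fragments, taken as the floor, were 0.0424 and 0.0474 FPKM. Neither intervals nor floors include more than counting error. Photoreceptor and muscle markers of the tissue check were all above 1 FPKM, 5 of 5 and 4 of 4 found in virilis and 4 of 4 and 5 of 5 in yakuba. Of the germline and eggshell markers, 3 of 7 found in virilis and 2 of 2 found in yakuba reached 1 FPKM. They summed to 10.7 FPKM over the 7 in virilis and 3.98 FPKM over the 2 in yakuba. Gut markers reached 1 FPKM as well, 1 of 1 found in virilis and 4 of 4 in yakuba. Their sums were 5.78 FPKM in virilis and 71.5 FPKM in yakuba.

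The X was expressed at close to autosomal level in both female heads, with small differences: the share of expressed models went in opposite directions in the 2 species, and the median of expressed models was lower on the X in both. In virilis 1505 of 2139 X models (70.36%) were expressed, against 72.6% of autosomal models, and 9 of the 10 autosomal scaffolds had a higher share than the X. Those scaffolds ranged from 69.19% on scaffold_10324 to 77.39% on scaffold_12823. In yakuba 1671 of 2401 X models (69.6%) were expressed, against 67.71% of autosomal models, and the X was above each of the 4 arms, which ran from 65.19% on 3L to 68.93% on 2L. With the threshold at 0.1 FPKM the yakuba difference shrank to 0.65 points, 84.2% against 83.5%. Between autosomal sequences of 1 library the share thus spread over more percentage points than the X differed from their pooled value, which was by -2.24 points in virilis and 1.89 points in yakuba.

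Among expressed models the X median was the lower in both libraries. It was 11.2 FPKM against 11.9 FPKM on the virilis autosomes, a ratio of 0.942, with the scaffolds between 8.10 and 12.8 FPKM. In yakuba it was 10.1 FPKM against 10.5 FPKM, a ratio of 0.957, with the arms between 10.1 FPKM on 3L and 10.9 FPKM on 2L. Both X medians therefore lay inside the range of the autosomal sequences. Over all models, silent ones included, the virilis X stayed below the autosomes, at 6.09 against 6.55 FPKM, whereas the yakuba X was above them, at 5.22 against 4.67 FPKM and above each of the 4 arms.

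**Figure D1:**
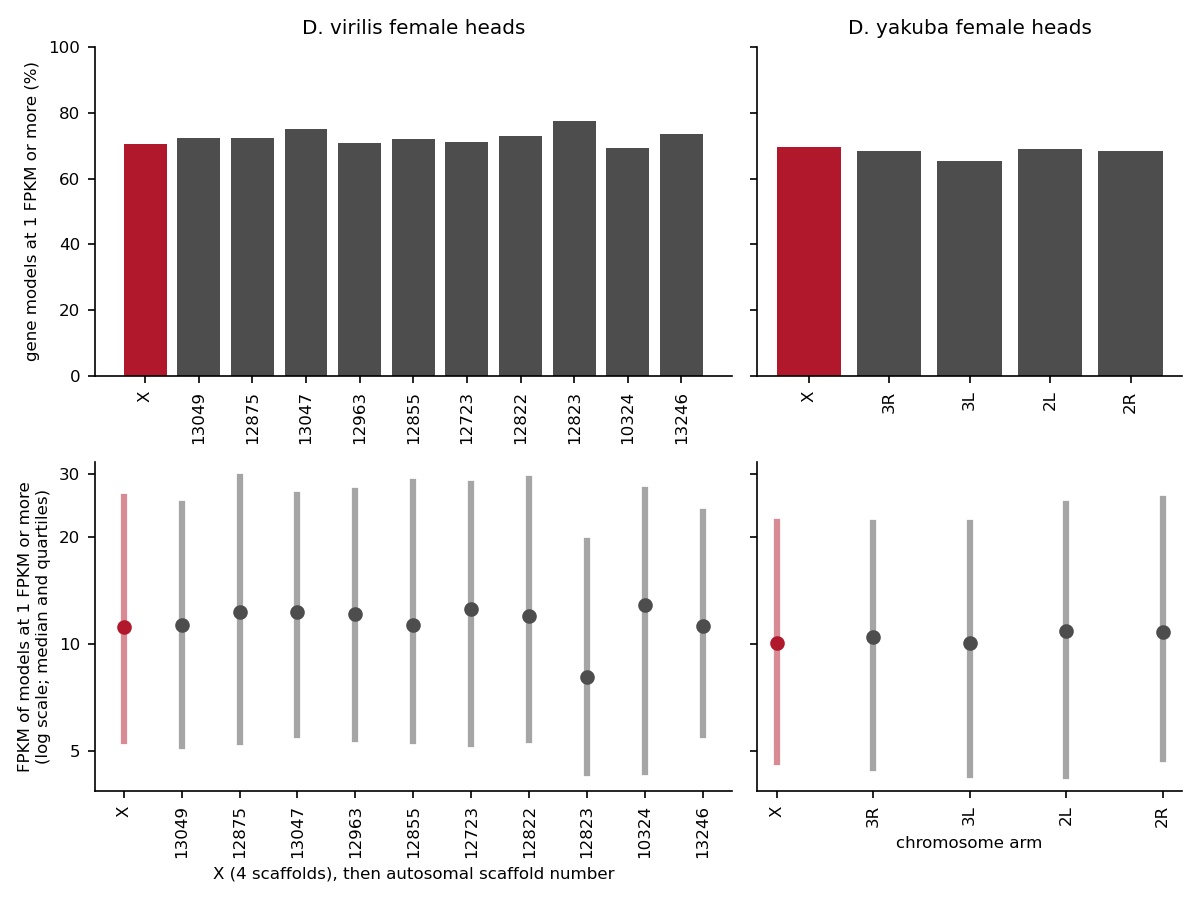
The upper row gives the percentage of gene models at 1 FPKM or more on the X (red) and on each autosomal scaffold or arm (grey), and the lower row the median (point) and quartiles (bar) of the models at 1 FPKM or more, on a log scale. The X share of 70.36% in virilis is below 9 of 10 scaffolds, the X share of 69.6% in yakuba is above all 4 arms, and the X medians of 11.2 and 10.1 FPKM sit within the autosomal medians.

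The upper end of the distribution held fewer X models than the pooled autosomes by most measures, though within the range of single scaffolds or arms. At 10 FPKM or more the virilis X share was the lower, at 38.76% against 40.57%. The yakuba X share was slightly the higher, at 35.03% against 34.92%. The 90th percentile was 43.5 FPKM on the virilis X against 49.9 FPKM on the autosomes, and 35.4 against 38.3 FPKM in yakuba. At 100 FPKM or more stood 96 virilis X models (4.49%, autosomes 5.22%) and 89 yakuba X models (3.71%, autosomes 4.17%). At 1000 FPKM or more the species parted, with 4 virilis X models (0.187%, autosomes 0.364%) and 9 yakuba X models (0.375%, autosomes 0.336%). The X held 11.9% of the summed FPKM of the virilis library with 14.76% of its models, and 14.1% of that of yakuba with 14.93%.

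At the silent end, 136 virilis X models (6.36%) were listed at 0. This pooled share was larger than on any of the 10 autosomal scaffolds, where it ran from 2.01% to 6.09%. The 4 X scaffolds were not alike in this. They ran from 3.93% on scaffold_12932 and 5.46% on scaffold_12928, inside the autosomal range, to 6.80% on scaffold_13042 and 7.28% on scaffold_12970. Under 0.1 FPKM were 14.3% of virilis X models, and 1 autosomal scaffold, scaffold_12855, had a larger share at 14.9%. In yakuba 225 X models (9.37%) were listed at 0, between the 8.29% of 2R and the 10.5% of 3L. A model listed at 0 in a table of FPKM can be a failed estimate as well as a gene without fragments.

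X-linked models were on the whole longer and more widely spaced than the pooled autosomal ones. The span of a model is the distance from its first to its last base, introns included. The median X span was 1734 bp in virilis against 1602 bp on the autosomes, with the scaffolds between 1512 and 2175 bp, and 1671 bp in yakuba against 1513 bp, above each of the 4 arms (1477 to 1531 bp). Of the 10 virilis scaffolds, 3 had a larger median span than the X. Spans of 20 kb or more made up 4.86% of virilis X models (autosomes 3.90%) and 3.04% of yakuba X models (autosomes 2.83%), with 4 of 10 scaffolds and the arm 3L (3.09%) above the X. The X carried 79.9 models per Mb in virilis against 101.1 on the autosomes, and 1 of the 10 scaffolds, scaffold_13246 at 68.3, was sparser. In yakuba it carried 110.4 models per Mb against 126.6, below each of the 4 arms.

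The expressed share rose with span on the X as on the autosomes, and both were therefore also set side by side within span classes. In the shortest virilis class, from 93 to under 825 bp, 52.8% of 553 X models were expressed against 61.0% of 2787 autosomal models. In the next classes the virilis shares were 66.8% against 68.3%, 75.3% against 74.9%, 83.5% against 85.6% and, in the widest, 89.5% against 90.5%. The lower X share in virilis was thus most marked among its shortest models. Without models under 300 bp the X share was 72.2% against 73.4%. In the shortest yakuba class, from 39 to under 783 bp, the shares were nearly equal, at 51.1% of 591 X models and 51.3% of 3053 autosomal models. The next yakuba classes had 67.7% against 65.0%, 74.96% against 71.75% and 81.25% against 81.3%, and the widest 88.7% against 90.6%. The higher X share of yakuba thus lay in the classes from 783 to under 3107 bp, and the order turned in the widest.

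The medians of expressed models were ordered in a like way in both species in every span class but the second. In the second class the X median was the lower in virilis, at 9.398 against 9.701 FPKM. In yakuba it was the higher there, at 8.695 against 8.631 FPKM. In the shortest class the X median was the higher, at 13.5 against 13.4 FPKM in virilis and 12.3 against 11.0 FPKM in yakuba. In the classes from 1626 to under 3534 bp and on to 16942 bp in virilis, and from 1532 to under 3107 bp and on to 13347 bp in yakuba, it was the lower, at 9.73 against 10.8 and 12.8 against 13.8 FPKM in virilis and 8.94 against 9.27 and 11.4 against 12.5 FPKM in yakuba. It was also the lower in the widest class, the top 5% of spans. The median expressed X model there stood at 12.6 FPKM in virilis, against 16.2 FPKM on the autosomes, and at 12.9 FPKM in yakuba, against 14.8 FPKM. Of the 133 yakuba X models in this class, 0 reached 100 FPKM, against 2.68% of 598 autosomal models. In virilis 2.42% of 124 X models did, against 3.47% of 547. Spearman's rho between span and FPKM was 0.24 over the 2139 virilis X models and 0.24 over the 2401 yakuba X models, which share 1 library each and are not independent. On the autosomes it was 0.20 and 0.26.

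**Figure D2:**
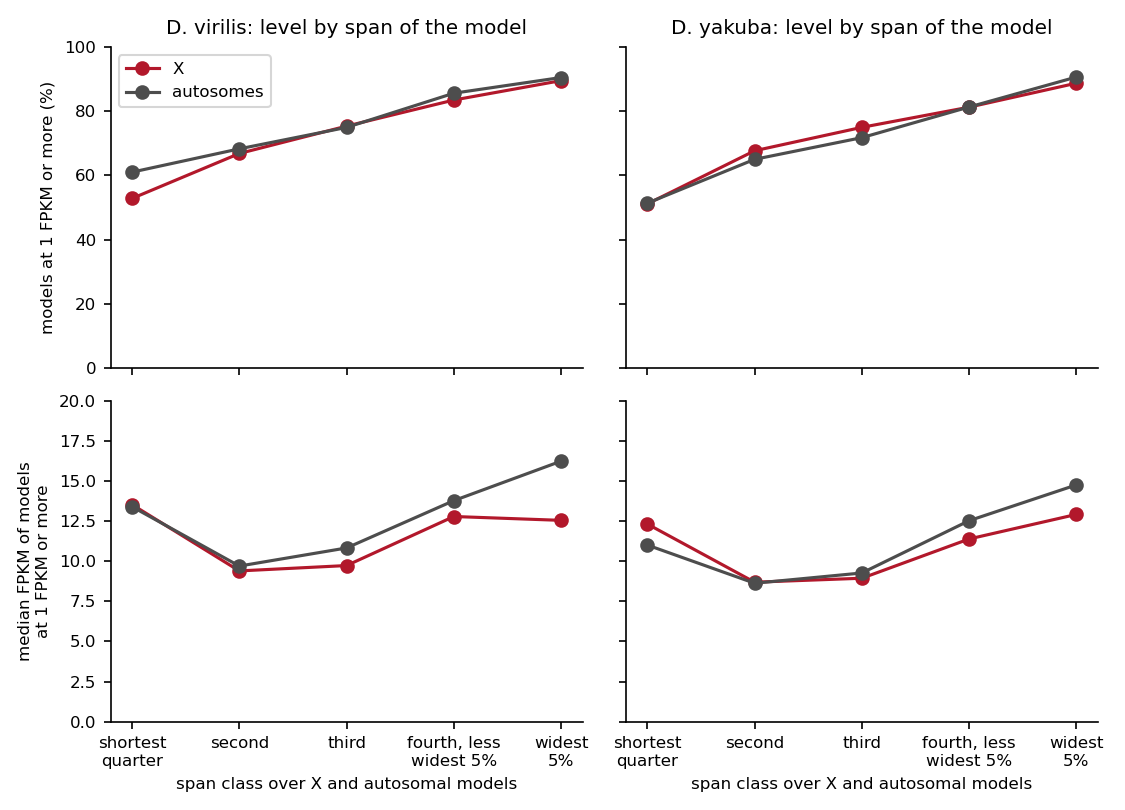
Models were put in 5 classes by span over X and autosomes together, with the widest 5% split off, and the panels give the percentage at 1 FPKM or more (upper) and the median FPKM of those models (lower) for the X (red) and the autosomes (grey). The X lies below the autosomes in the shortest virilis class (52.8% against 61.0%) and at the lower median in the widest class of both species (12.6 against 16.2 FPKM and 12.9 against 14.8 FPKM).

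Along the chromosome, expressed models were spread unevenly, and in bins of 100 models within the range found on autosomes. The last bin of a chromosome, arm or scaffold took the remaining models, 78 to 141 on the X and 65 to 142 on the autosomes. In bins of 100 consecutive models the share of expressed models ran from 54% to 86% over the 24 yakuba X bins (median 69%) and from 49% to 81% over the 21 virilis X bins (median 69.6%). Autosomal bins ran from 41% to 90% in yakuba (122 bins, median 69%) and from 47% to 89% in virilis (114 bins, median 73%). All 24 and all 21 of these X bins were inside those ranges, and 12 of 24 yakuba bins but 7 of 21 virilis bins were above the autosomal median.

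The yakuba X had its highest bin near one end, at X:1900360-2708570, where 86% of models were expressed, 0 were listed at 0 and the median over all models was 8.39 FPKM. That bin holds the X model with the highest level, GE16472 at 2344 FPKM. A run of 6 neighbouring bins in the middle of the chromosome, from 9416863 to 13821575, stayed between 75% and 85%. The v gene of eye pigment synthesis, Zw of the pentose phosphate pathway and the ribosomal protein genes RpS19a, RpS14a and RpS6 lie in it. The lowest bins were at X:3637494-4640098 (54%) and the next one along, to 5856953 (55%), which is also the only one of the 24 without a model at 100 FPKM and which holds Notch (N) and the clock gene per. A further low bin at X:13848696-14879482 had 55% expressed and 19% listed at 0. Bins that took more sequence to hold 100 models had fewer expressed models, with Spearman's rho of -0.72 over the 24 X bins, which are parts of 1 chromosome in 1 library. The same measure was -0.23 over the 122 autosomal bins of yakuba.

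The virilis X was more even, apart from 1 bin. At scaffold_12928:2366191-4018032, 49% of models were expressed, 15% were listed at 0 and the median over all models was 0.956 FPKM. The bin before it, at 1103640-2347535 and with the muscle gene wupA, was the highest of the X at 81%. In bins of 1 Mb the lowest virilis X bin, at 40.3%, was below the lowest autosomal bin, at 43.7%. The other 19 of the 21 virilis bins lay between 65% and 79%. The low bin contains the neighbouring thioredoxin genes TrxT and dhd, described below. Between bin share and bin length Spearman's rho was -0.32 over the 21 X bins of virilis and -0.39 over its 114 autosomal bins.

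**Figure D3:**
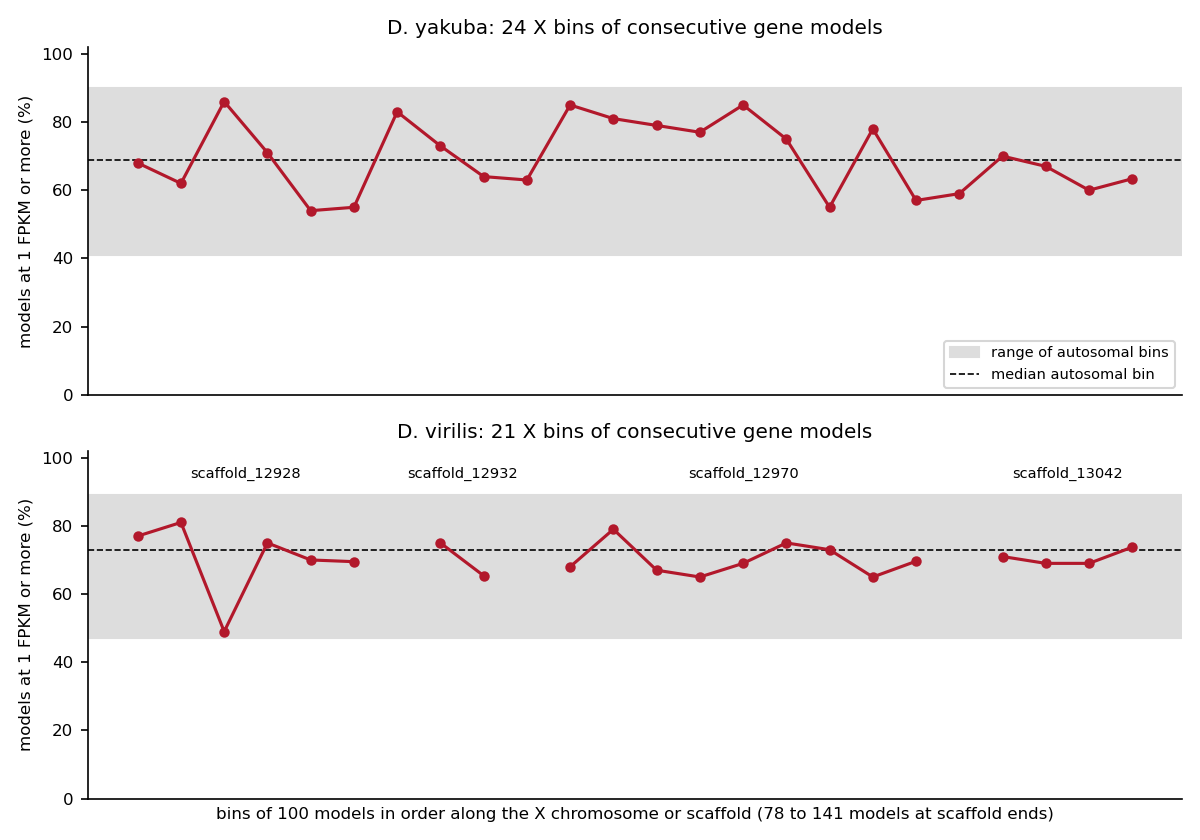
Each point is the percentage of models at 1 FPKM or more in a bin of 100 consecutive X models, in order along the yakuba X (upper) and the 4 virilis X scaffolds (lower), with the range of autosomal bins in grey and their median as a dashed line. The last bin of the chromosome or of a scaffold holds 78 to 141 models. The yakuba bins go from 54% to 86% with a run of 6 high bins in the middle, and 1 virilis bin falls to 49% while the highest reaches 81%.

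Neighbouring X models resembled each other in level. Over 2325 pairs of adjacent, non-overlapping yakuba X models Spearman's rho was 0.35, and over 2075 virilis pairs 0.30. On the autosomes the values were 0.34 and 0.29. These pairs share models and a library, and 0 X neighbours in either table had identical values above 0. Neighbours both listed at 0 were left out of that count but stayed in the rho.

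Silent stretches, here at least 5 consecutive models all under 1 FPKM, numbered 25 on the virilis X and 34 on the yakuba X. Per 1000 models that was 11.7 in virilis against 11.2 on the autosomes, and 14.2 in yakuba against 14.8. These orders were not stable. Without overlapping models the virilis X had 11.5 against 11.8 per 1000, and with at least 8 models the yakuba X had 5.41 against 5.25. The stretches of at least 5 models held 191 virilis X models (8.93%, autosomes 7.81%) and 253 yakuba X models (10.5%, autosomes 11.2%). Models inside them were shorter than other X models under 1 FPKM, with median spans of 987 against 1119 bp in virilis and 810 against 1173 bp in yakuba. They were also listed at 0 more often, 35.6% against 15.4% and 44.7% against 23.5%. Both traits held inside the autosomal silent stretches too. Median spans there were 966 against 1248 bp in virilis and 952 against 1096 bp in yakuba. The shares listed at 0 were 28.6% against 14.6% and 41.5% against 21.6%.

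The longest silent stretch of the virilis X ran over 17 models from GJ16422 to GJ16411 (scaffold_12928:6724940-6936507), as long as the longest autosomal one. All 17 were at 0.941 FPKM or lower, between GJ16423 at 32.4 FPKM and GJ16410 at 1.92 FPKM. Next was an 11-model stretch from GJ16906 to GJ16520 (scaffold_12928:4332887-4428994). Of 4 stretches with 10 models, the one that ends at ac on scaffold_13042 is described below. In yakuba the longest had 13 models, from GE16129 to GE16124 (X:8191400-8339796), with 9 listed at 0, while the longest autosomal one had 19. Stretches of 12 models followed from GE16367 to GE16837 (X:3718725-3796102), from GE15720 to GE15712 (X:14033542-14129827) and from GE15548 to GE15539 (X:16764974-16835600), and 10 of 12 models of the last were listed at 0. The widest silent stretch, with 10 models, took up 616.8 kb (X:20634176-21251006). The genes in these stretches have systematic identifiers only, apart from those named below.

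High stretches, at least 5 consecutive models all at 10 FPKM or more, numbered 23 on each X. Per 1000 models there were fewer than on the autosomes in virilis, 10.8 against 12.5, and more in yakuba, 9.58 against 7.87. The yakuba order turned with at least 8 models, to 0.833 against 1.15, and with a level of 20 FPKM, to 0.417 against 1.15. None on either X exceeded 8 models, while the longest autosomal ones had 25 models in virilis and 14 in yakuba. The larger number of autosomal models gives more room for a long run, and the lengths were not scaled for this.

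The 8-model high stretches of the virilis X were GJ16929 to GJ16933 (scaffold_12928:4767312-4787123, up to 863.3 FPKM), GJ16404 to GJ16400 (scaffold_12928:7022448-7071074) and GJ14808 to GJ14779 (scaffold_12932:237701-360825). The clock gene per, the sodium channel gene para and the yolk protein gene Yp1 lay in shorter ones, of 7, 7 and 5 models. In yakuba the 8-model stretches were GE17071 to GE16159 (X:7545405-7585823) and GE15751 to GE15747 (X:13466446-13498367), the latter with RpS14a. Shorter yakuba stretches held ctp, ran, Ntf-2, Ag5r, eIF5, Hsc70-3 and the adjacent RpII215 and PGRP-SA, genes of a dynein light chain, nuclear transport, an antigen 5-related protein, translation initiation, an endoplasmic reticulum chaperone, RNA polymerase II and a peptidoglycan receptor. Of the 23 high stretches, 8 in yakuba and 3 in virilis contained a gene with a symbol.

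**Figure D4:**
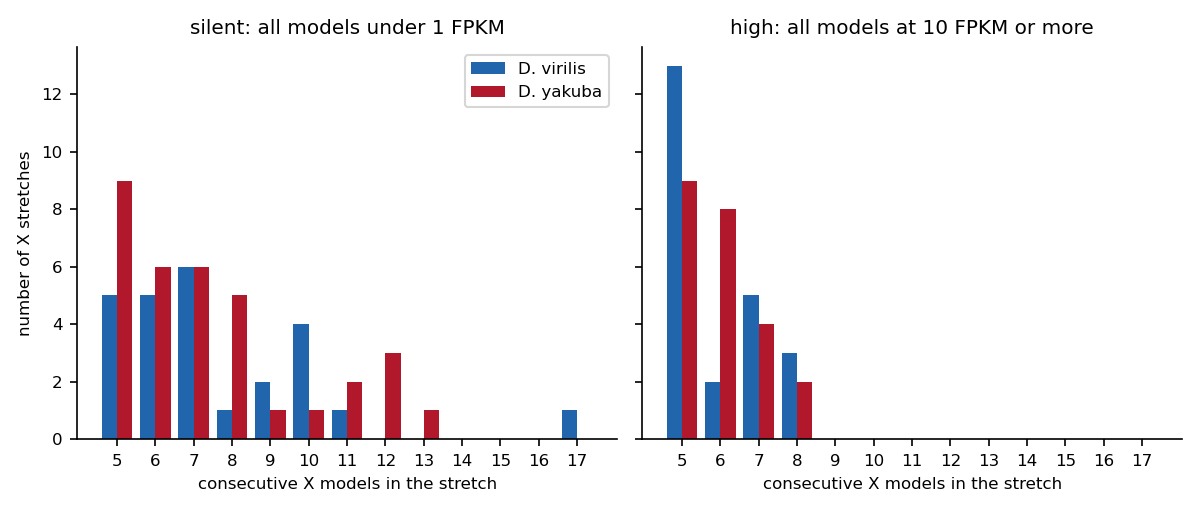
Bars count the silent (left, all models under 1 FPKM) and high (right, all models at 10 FPKM or more) stretches of the virilis and yakuba X by the number of consecutive models in them. Silent stretches reach 17 models in virilis and 13 in yakuba, and no high stretch is longer than 8 models.

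The achaete-scute region was silent in both species, and the neighbouring yellow gene was the point of difference. The achaete-scute genes encode proneural transcription factors that select neural precursors in the embryo and larva, and y encodes a secreted protein needed for dark cuticle pigment. In yakuba a silent stretch of 8 models (X:177902-283580) began beside y and held y at 0.208 FPKM, ac at 0, sc at 0.0191 FPKM, l(1)sc at 0 and ase at 0.0242 FPKM. With an estimated floor of 0.0474 FPKM over 1 kb, sc and ase were below what 3 fragments give. In virilis the 10-model stretch from GJ15981 to ac (scaffold_13042:3689454-3877147) held sc at 0.0474 FPKM and ac at 0.0569 FPKM, and y followed outside it at 8.71 FPKM. The gap from y to ac was 17.4 kb in virilis and 10.5 kb in yakuba, with 0 models between in each. Of the models around it in virilis, ac and GJ15590 (0.285 FPKM) on its sides were under 1 FPKM, so y was expressed there between silent neighbours. The y models differed in span, 8305 bp in virilis and 4075 bp in yakuba, and both values were under the 10 FPKM set for the comparison of species below. The silent stretches also held runt (run), a segmentation gene and X-linked signal element of sex determination, in both species, at 0.509 FPKM in virilis and 0.537 FPKM in yakuba.

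Genes with a symbol were few, 39 of 2139 X models (1.82%) in virilis and 83 of 2401 (3.46%) in yakuba, and they do not represent the X. In yakuba their median was 22.3 FPKM against 4.95 FPKM for X models without a symbol, in virilis 7.73 against 6.06 FPKM. At least 1 FPKM was reached by 30 of 39 and 73 of 83, and at least 100 FPKM by 4 and 20. Of the 173 symbols in the 13 lists of genes X-linked in D. melanogaster, 27 were found on the virilis X and 33 on the yakuba X. A list below therefore describes the members found and no whole pathway.

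Housekeeping genes led the yakuba X models with a symbol. The adenine nucleotide translocase gene sesB, which exchanges ADP and ATP across the inner mitochondrial membrane, was the highest with a symbol at 2117 FPKM (FBgn0067930, X:19245758-19246805), in place 2 among X models and 11 in the library. All 7 ribosomal protein genes found of 14 lay between 634.4 FPKM (RpS6) and 1017 FPKM (RpL36), with RpS15Aa and sta at 1014 FPKM each, RpS14a at 696.4 FPKM, RpS19a at 696 FPKM and RpL7A at 647.2 FPKM. RpS14a has a near-identical neighbouring copy in D. melanogaster, so its value is uncertain if reads were split between copies. The chaperone gene Hsc70-3 had 223.8 FPKM. Among the metabolic genes below sesB were hexokinase Hex-A at 77.8 FPKM, the pentose phosphate genes Pgd and Zw at 60.3 and 22.3 FPKM, and the molybdenum cofactor gene cin, the lowest of the 5, at 6.30 FPKM. No gene of the ribosomal, chaperone or metabolic lists carried a symbol on the virilis X.

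The purine synthesis gene ade5 stood at 453.1 FPKM and the actin gene labelled Act57B at 405.8 FPKM on the yakuba X. Act57B lies on an autosome in D. melanogaster, and actin genes are near-identical, so the identity and the level of this model (FBgn0068537, X:14656261-14657391) are uncertain. On the virilis X, T-cp1, like these in none of the lists, had 24.3 FPKM, place 9 among X models with a symbol.

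The troponin genes found were high in both heads, and the other genes of the muscle and cytoskeleton list ranged more widely. In virilis the 2 found of 12 were the troponin I gene wupA at 464 FPKM and the troponin T gene up at 382.8 FPKM, places 23 and 28 of the X. In yakuba the 4 found of 12 were ctp at 239.6 FPKM, wupA at 135.6 FPKM, the myosin regulatory light chain gene sqh at 62.8 FPKM and the actin-bundling fascin gene sn at 25.7 FPKM.

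Neuronal, eye and clock genes were at intermediate levels, and all of those found except nonA were above most X models. In virilis the voltage-gated sodium channel gene para had 33.2 FPKM, above 85.9% of X models, the RNA-binding neuronal gene elav had 12.8 FPKM, and nonA, an RNA-binding gene of vision and courtship song, had 4.63 FPKM. The elav-family gene fne was the neuronal gene found in yakuba, at 24.5 FPKM. The receptor tyrosine kinase gene of the R7 photoreceptor, sev, had 27.3 FPKM in virilis. In yakuba the tryptophan oxidase gene v, needed for brown eye pigment, had 48.4 FPKM and g, of pigment granule sorting, 17.0 FPKM. The clock gene per was at 22.9 FPKM in virilis and 18.9 FPKM in yakuba, above 81.1% and 79.6% of the X models. Its models span 4886 and 1194 bp, so its FPKM rests on unlike models.

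The odorant-binding protein genes of the Obp19 group show how far adjacent X genes can differ. Odorant-binding proteins are small secreted proteins of sensory hairs. On virilis scaffold_13042 the genes lie in a row, Obp19d, Obp19c, Obp19b and Obp19a, from 3042670 to 3049131, with gaps of 1920, 1792 and 250 bp and spans of 608 to 635 bp. Obp19d had 721.6 FPKM, the highest X level with a symbol in virilis. Obp19c beside it had 0.119 FPKM, and Obp19b and Obp19a had 21.2 and 20.6 FPKM. Obp8a, elsewhere on the X, had 1.54 FPKM. No member of the list carried a symbol on the yakuba X.

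Of the yolk, eggshell and germline genes, Yp1 stood apart. It encodes a yolk protein made in female fat body and ovary and had 214.6 FPKM in virilis, place 43 of the X. The germline transcription factor gene ovo had 3.28 FPKM, the chorion gene Cp36 2.33 FPKM, dhd 1.77 FPKM and the eggshell gene dec-1 0.265 FPKM inside a silent stretch of 9 models. In whole heads, fewer cells of a type and less RNA per cell cannot be told apart. The 2 found in yakuba were dhd at 22.8 FPKM and dec-1 at 2.81 FPKM.

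Of the genes of sex determination, Sxl was expressed and the embryonic signal elements were not. Sxl, the switch gene of female development in D. melanogaster, had 39.3 FPKM in virilis (FBgn0016470, scaffold_12928:52321-67784), above 88.3% of X models. The signal elements sisA, sc and run, which act on Sxl in the early embryo of D. melanogaster, were at 0, 0.0474 and 0.509 FPKM. In yakuba sc and run were at 0.0191 and 0.537 FPKM.

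Developmental signalling genes ranged widely. In virilis the phosphatase gene csw had 40.2 FPKM, the BMP antagonist gene sog 13.7 FPKM, the hedgehog pathway kinase gene fu 8.71 FPKM and the T-box gene bi 2.55 FPKM, with ac the lowest of the 5. In yakuba sog had 22.5 FPKM, the kinase gene Tak1 12.1 FPKM and the receptor gene N 8.50 FPKM, and ase, l(1)sc and ac were under 1 FPKM. PGRP-SA, a receptor for bacterial peptidoglycan, had 26.01 FPKM in yakuba.

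**Figure D5:**
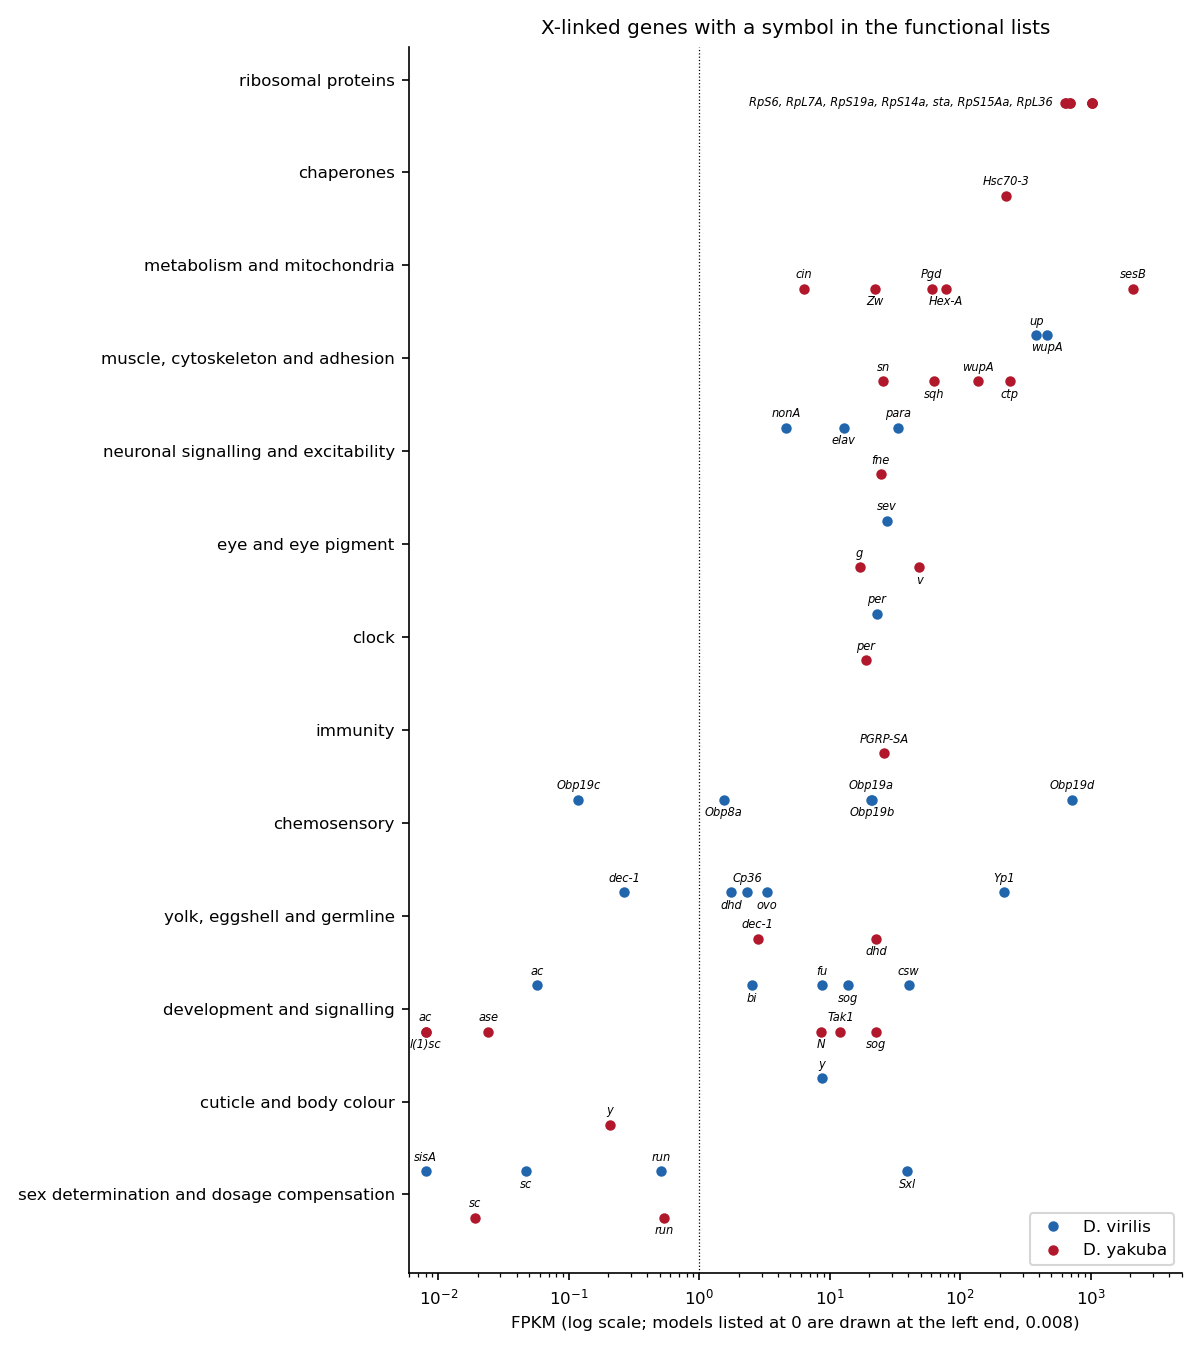
FPKM (log scale) of the X-linked genes with a symbol in the 13 functional lists, virilis in blue and yakuba in red, with 1 FPKM as a dotted line. The 7 yakuba ribosomal protein genes lie between 634.4 and 1017 FPKM, the virilis Obp19 genes spread from 0.119 to 721.6 FPKM, and the achaete-scute genes, run and sisA are under 1 FPKM.

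The genes with a symbol and the widest spans ranged from 2.55 to 41.7 FPKM. The lowest and highest of them in virilis, bi and para, were above 37.7% and 85.9% of X models. Those in yakuba, N and Pk17E, were above 60.7% and 91.7%. In virilis these were bi over 85.88 kb at 2.55 FPKM, para over 61.67 kb at 33.2 FPKM, ovo over 31.82 kb at 3.28 FPKM, sog over 31.01 kb at 13.7 FPKM and sev over 20.84 kb at 27.3 FPKM. In yakuba they were N over 36.07 kb at 8.50 FPKM, sog over 20.9 kb at 22.5 FPKM, the kinase gene Pk17E over 17.71 kb at 41.7 FPKM, FBgn0043604, a gene known by a cosmid name, over 9.739 kb at 36.5 FPKM and the autophagy gene Atg5 over 9.377 kb at 9.50 FPKM. None of these reached 100 FPKM, a level that 4.49% of all virilis X models and 3.71% of all yakuba X models reached.

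The highest X models had no symbol. In virilis these were GJ14804 at 2428 FPKM (FBgn0202008, scaffold_12932:215553-215783), GJ15782 at 2219 FPKM (FBgn0202970, scaffold_13042:509929-510966) and GJ19416 at 1763 FPKM (FBgn0206559, scaffold_12970:8572540-8572737). GJ14804 and GJ19416 span 231 and 198 bp, close to the estimated fragment length of 160 bp in that library, where FPKM depends strongly on how length was corrected. In yakuba they were GE16472 at 2344 FPKM (FBgn0233993, X:2175614-2176306), GE17881 at 1429 FPKM (FBgn0235319, X:19516874-19517607) and GE17844 at 1342 FPKM (FBgn0068409, X:18928355-18928589, 235 bp). The functions of these models were not analysed here.

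Between the species, 14 X-linked genes could be compared by an identical symbol. Of these dhd, dec-1, wupA and y were more than 2-fold from the common ratio, with dec-1 and y under 10 FPKM in both heads. Each ratio was the log2 of virilis over yakuba after adding 1 FPKM to both values. From it was taken the median of -0.20 over the 52 pairs, on any chromosome, that were expressed in both heads. A pair was called if it was 4-fold or more from that median with 10 FPKM or more in the higher library. Of the 14 X pairs, 4 reached 10 FPKM (dhd, sog, per and wupA) and 1 of these was called. Within 2-fold of the median were 2 of these 4, against 31 of the 37 other pairs that reached 10 FPKM. With 4 X pairs these shares cannot be set apart. Over all chromosomes 4 of 41 such pairs were called, 9.76%, and 3 of 41 were called higher in yakuba, 7.32%. A single X call among 4 cannot be set apart from that background.

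The called gene was dhd, a thioredoxin gene that in D. melanogaster acts in the female germline and in the early embryo, at 1.77 FPKM in virilis and 22.8 FPKM in yakuba, a relative log2 ratio of -2.91. The models were of like span, 321 and 324 bp. Its neighbour TrxT, a thioredoxin gene of the testis in D. melanogaster, was under 1 FPKM in both, at 0.131 FPKM in virilis and 0.424 FPKM in yakuba. The adjacent genes thus had unlike levels in the yakuba head although they lay 858 bp apart, and 659 bp apart in virilis. Of the germline and eggshell genes ovo, Cp36 and dec-1, dec-1 alone carried a symbol on the yakuba X, with 2.81 FPKM against 0.265 FPKM in virilis (relative log2 ratio -1.39). The part of germline tissue in the dhd values was not tested.

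Towards virilis, wupA had a relative log2 ratio of 1.97, just under 4-fold. The autosomal muscle genes with a symbol in both tables were higher in virilis too, myosin heavy chain Mhc at 1181 against 489.7 FPKM and myosin light chain Mlc1 at 1685 against 605.2 FPKM, and their part in the wupA difference was not tested. The largest X ratio of all was that of y, 3.21, with 8.71 FPKM in virilis and 0.208 FPKM in yakuba. It was not called because neither head reached 10 FPKM. The remaining pairs were within 2-fold of the median ratio. The BMP antagonist gene sog had -0.48, the RNA-processing gene su(s) -0.32 (6.43 and 9.67 FPKM), the chromatin-binding gene z -0.16 (7.13 and 9.44 FPKM), Atg5 0.22 (9.66 and 9.50 FPKM), per 0.46 and the meiotic recombination gene mei-218 0.60 (1.09 and 0.580 FPKM). TrxT, run, sc and ac were under 1 FPKM in both heads. For such low pairs, and in part for mei-218, the added 1 FPKM shrinks the ratio. A small ratio there does not show like levels. In all, 11 of the 14 pairs were on the same side of 1 FPKM in both heads. The exceptions were y, dec-1 and mei-218. Species, stock, gene models and library preparation cannot be told apart in these ratios.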

How the data were processed

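Trizol RNA of female heads, 1 µg per species, was made into stranded libraries with the Illumina TruSeq total RNA kit, per the labels' protocols. Each deposited table gives the gene, its name, its locus and 1 FPKM value in a line, per the file headers. The authors used TopHat and Cufflinks, per the submitters' processing notes. Tool versions, builds, annotations and whether strand was used in counting were not given in the sources used here, so overlapping and antisense models cannot be told apart.

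All models were kept, and 0 value columns were left unused. Locus starts count from 0 in the tables (end minus start was a multiple of 3 in 66.8% of spans under 900 bp in virilis and in 67.6% in yakuba) and are printed counted from 1. The share at 1 FPKM or more, medians, spans, bins of 100 models and stretches of at least 5 models were computed for the X and for each autosomal scaffold or arm, with the ratio of species using a pseudocount of 1 FPKM. Depth was estimated from the total at which low FPKM values came closest to whole fragments (58.9% and 49.2% of values within 0.04, against medians of 5.60% and 5.91% over the totals searched). The search for silent stretches and the binning were checked on simulated data. The depth estimate and the ratios of species were not checked in this way. With 1 library per species no test was made. Models of 1 library are not replicates.

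The X-linked set and the 13 lists were chosen with earlier results of these data known. Named were the 10 highest X models with a symbol and the 3 highest without one per library, the highest 4 and the lowest member of each list, all symbols shared between species, the longest stretches and the 5 widest genes with a symbol; the genes of the Obp19 row, the achaete-scute region and the other stretches with a symbol were singled out after their values were seen. Alternatives covered the level threshold, short and overlapping models, each virilis scaffold, other sequences, bin size, stretch rules, and for pairs the pseudocount, minimum and centring. Python 3.11.15, pandas 2.3.3, numpy 2.4.6, scipy 1.17.1 and matplotlib 3.10.9 were used.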

Additional observations from a re-analysis of the deposited data

How the results depend on the processing

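Of 68 alternative values over 15 results, 52 kept their direction and stayed within a 95% interval over X models (counts: within a set factor), which does not make them close, 15 moved further and 1 reversed. Orders of X and autosomes in stretches per 1000 models were not among these results, and 4 that turned are given with the stretches. The reversal was the yakuba ratio of X to autosomal medians, 0.957 over expressed models and 1.12 over all models, which takes in the models under 1 FPKM, of which the X had the smaller share. In virilis the same ratio moved from 0.942 to 0.897 over models at 5 FPKM or more. With chromosome 4 and other sequences added to the yakuba autosomes, the X share was 4.60 points higher in place of 1.89 (0.65 with a threshold of 0.1 FPKM), and the span ratio 1.16 in place of 1.10. The lower virilis X share of -2.24 points was -1.12 points without models under 300 bp and -3.38 points with scaffold_12726 added to the X, an alternative chosen after seeing the data. Silent stretches of the virilis X went from 25 to 18 under 0.5 FPKM. Bin extremes depended on bin size. The lowest virilis share was 62% with 200 models per bin, the highest 90% with 50, and the yakuba extremes with 50 were 38% and 96%. Requiring 8 models left 9 silent and 3 high stretches in virilis and 13 and 2 in yakuba, and a level of 20 FPKM left 2 and 1 high stretches. Of the X pairs, 0 were called with a pseudocount of 5 FPKM and 2, dhd and y, with no minimum level. No paired analysis was possible because each species had 1 library. Depth limits levels near 0.05 FPKM, and the missing replicates limit every comparison.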

Other observations

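A few sequences outside the X sets bear on their borders. The virilis scaffold_12726, whose 3 symbols are X-linked in the RefSeq table, had 112 of 197 models at 1 FPKM or more (56.85%), a lower share than on any of the 4 X scaffolds, which lay between 70.08% and 70.98%. Its expressed median of 11.4 FPKM was within their range of 11.0 to 11.9 FPKM, and its median span of 1310 bp was below theirs, which ran from 1677 to 2051 bp.

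The yakuba table also held 53 models on sequences labelled as unplaced X or X heterochromatin. Of these 21 (39.62%) were at 1 FPKM or more and 15 (28.3%) were listed at 0, with an expressed median of 8.85 FPKM and a median span of 741 bp. The widest X model of yakuba, GE17947, spans 161.6 kb near the end of the assembled X (X:21466374-21627932) and had 0.0912 FPKM, while the next 4 in width had 14.2 to 20.04 FPKM. In virilis the widest, GJ16693, spans 137.8 kb and had 3.88 FPKM, and the second, GJ16640 over 109 kb, had 69.8 FPKM.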
